A study of Mus musculus with 40 samples.

Results

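Hepatic genes of cholesterol synthesis, uptake and export were followed across a dose response to TCDD, the persistent dioxin that activates the aryl hydrocarbon receptor (AhR). They were chosen by pathway membership, with earlier results of these data known. Matched by symbol to Ensembl gene identifiers, they made up 31 of the 55359 gene rows counted. All 31 had enough reads to be tested, as did 15373 genes in all. The members fell into 5 roles, with 4 regulators of the sterol sensor, 7 genes of the mevalonate arm, 11 genes of the sterol arm, 5 genes of uptake and storage, and 4 genes of the liver X receptor (LXR) and export.

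Liver RNA was sequenced from 40 male C57BL/6 mice, 5 in each of 8 groups. All mice were gavaged every 4 days for 28 days (7 gavages), from 30 to 58 days of age, with sesame oil. The vehicle group received the oil alone and the other 7 groups received the oil with TCDD at 0.03, 0.1 or 0.3 µg/kg, at 1 or 3 µg/kg, or at 10 or 30 µg/kg. All carried their own AhR, ate freely and were killed early in the light phase, so no group tested AhR dependence or another hour of the day. Each library was a whole liver piece and a single time point.

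Cholesterol is built from acetyl-CoA, first along the mevalonate arm to farnesyl diphosphate and then along the sterol arm from squalene to cholesterol. The transcription factor SREBP2 (Srebf2) drives the genes of both arms. When sterols are scarce, SCAP escorts SREBP2 to the Golgi to be activated, and when sterols are abundant, INSIG1 and INSIG2 hold the complex in the endoplasmic reticulum. Surplus sterol is sensed by LXRα (Nr1h3), whose classical targets include the exporters Abca1, Abcg5 and Abcg8 and the ubiquitin ligase Mylip, which removes lipoprotein receptors. Hepatocytes are the main site of both synthesis and export in the liver.

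Promoter sequence is shown for the members whose regulation the values below turn on. Of the 31 members, 24 had an entry in the RefSeq promoter table (mouse build GRCm38.p6), and 250 bases before the start are printed. Hmgcs1 was chosen because it alone of the 24 held the letters TCACNCCAC of a sterol regulatory element on either strand, and Sc5d and Insig1, because they had the largest falls at 30 µg/kg among genes in the table. Capitals mark TCACNCCAC and CCAAT on either strand (read as ATTGG on the other), the latter being the letters of the NF-Y box that often sits beside SREBP sites. The fourth sequence is the stretch between the starts of Abcg5 and Abcg8, which are read in opposite directions from starts 110 bases apart.
Hmgcs1, chr13:119690101-119690350, plus strand: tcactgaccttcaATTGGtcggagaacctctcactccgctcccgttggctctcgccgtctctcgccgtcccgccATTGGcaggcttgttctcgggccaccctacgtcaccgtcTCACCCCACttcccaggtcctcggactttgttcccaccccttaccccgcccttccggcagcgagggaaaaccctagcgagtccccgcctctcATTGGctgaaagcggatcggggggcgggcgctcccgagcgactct
Sc5d, chr9:42264301-42264550, minus strand: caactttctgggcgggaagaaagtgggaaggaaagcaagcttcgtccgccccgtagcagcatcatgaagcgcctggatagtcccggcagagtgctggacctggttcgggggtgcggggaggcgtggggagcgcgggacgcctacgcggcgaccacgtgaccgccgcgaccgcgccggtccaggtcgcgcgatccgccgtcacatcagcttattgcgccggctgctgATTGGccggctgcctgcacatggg
Insig1, chr5:28071162-28071411, plus strand: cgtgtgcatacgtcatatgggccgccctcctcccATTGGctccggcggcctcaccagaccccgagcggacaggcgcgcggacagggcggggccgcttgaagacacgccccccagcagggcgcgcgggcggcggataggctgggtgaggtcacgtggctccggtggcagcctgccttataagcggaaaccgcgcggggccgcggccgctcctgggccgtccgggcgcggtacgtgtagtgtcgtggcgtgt
Abcg5 to Abcg8, chr17:84683012-84683120, plus strand: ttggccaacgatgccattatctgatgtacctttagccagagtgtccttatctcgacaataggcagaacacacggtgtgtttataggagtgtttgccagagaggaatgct

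Within the windows of the table, which run from 250 bases before to 50 after each start, TCACNCCAC was found in 1 of the 24 members (4.17%) and in 1.44% of all 27025 genes listed. In Hmgcs1 it began 137 bases before the start. CCAAT on either strand was found in 20 of the 24 members (83.3%) and in 14 of the 15 synthesis genes with an entry (93.3%), against 41.1% of all genes. GCGTG, the core letters of the dioxin response element bound by AhR, was found on either strand in 15 of the 24 (62.5%) against 35.2% of all genes. Sc5d and Insig1 held GCGTG and Hmgcs1 did not. The stretch between Abcg5 and Abcg8 held none of the 3 sets of letters. A gene with several starts was counted where any of its windows matched. The comparison took all genes listed, expressed in liver or not, without matching for base composition or number of starts. These matches describe letters in a window and were not tested as binding sites, nor were the differences in share tested.

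Levels are given as CPM, the reads of a gene relative to library size, with library sizes adjusted by edgeR's TMM factors. Genes were called changed where edgeR's quasi-likelihood test gave a Benjamini-Hochberg adjusted p under 0.05 over all genes tested and the fitted fold was at least 1.5. Per kilobase of exon, the highest vehicle levels among the members were those of Insig1 (152.6 CPM per kb), Sc5d (144.3) and Ebp (128.7). Insig2 followed at 96.2 CPM per kb, and Fdps (2.22) and Mylip (2.10) were lowest. The exons of Fdps overlapped those of another gene on the same strand over 26.7% of their length, and Tm7sf2 over 12.1%, where reads cannot be assigned. The opposite strand was shared over 18.3% of Fdft1, 13.2% of Scap, 12.1% of Hmgcs1 and 9.22% of Idi1, and the libraries kept no strand, so the levels of these genes are uncertain.

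TCDD at 30 µg/kg repressed most of the pathway. Of the 31 members, 25 were called lower and 1 (Mylip) higher than vehicle, where 42.1% of all genes tested were called, 18.9% lower and 23.2% higher. The median log2 fold change was −1.40 over the members and 0.03 over all genes. At 10 µg/kg, 7 members were lower and 1 (Mvk) higher, against 21.8% of all genes called (8.13% lower and 13.6% higher), with medians of 0.01 for both the members and all genes. Insig2 was the single member called at 3 µg/kg (6.75% of all genes called, 2.22% lower) and at 1 µg/kg (2.78%, 0.637% lower). No member was called at 0.3 µg/kg (0.468% of all genes called), 0.1 µg/kg (0.0976%) or 0.03 µg/kg (0.0195%).

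**Figure D1:**
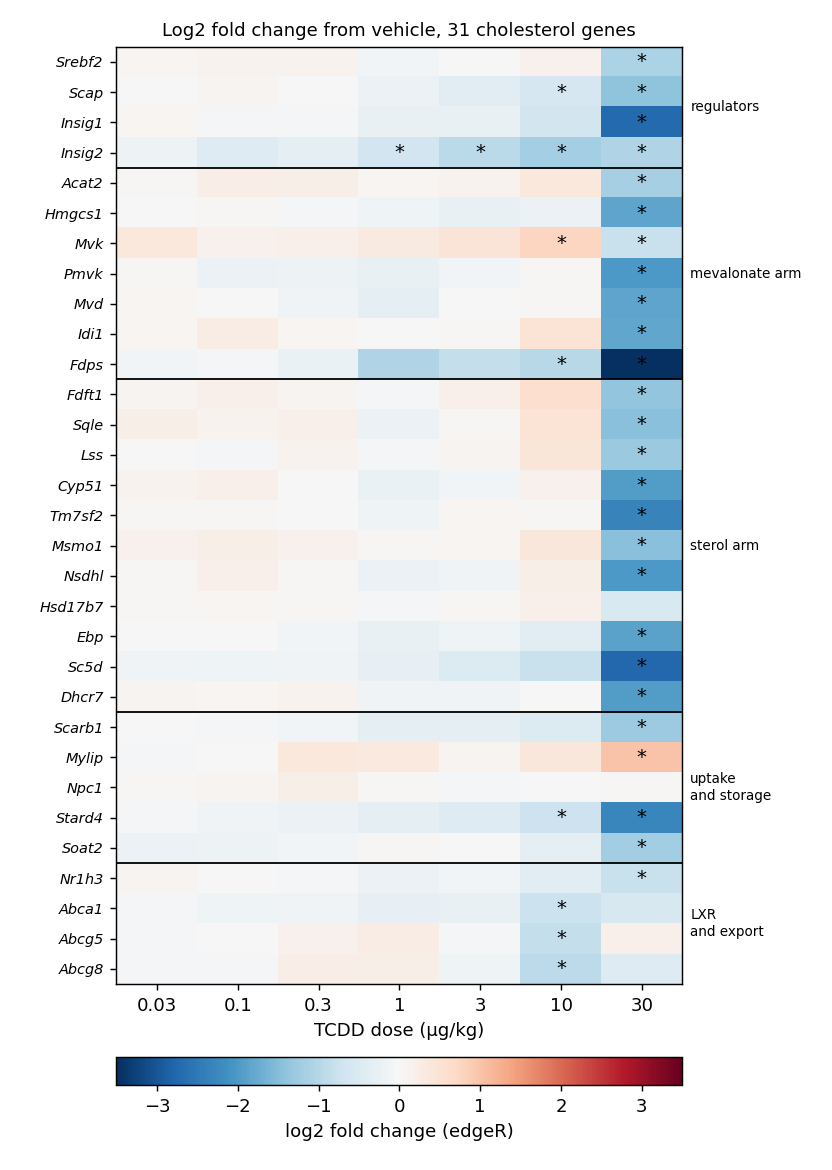
Fitted log2 fold change from vehicle (colour) for the 31 members (rows, grouped by role) at 7 TCDD doses in µg/kg (columns), with an asterisk where a gene was called. The 30 µg/kg column holds 26 calls, 25 of them lower, and the 10 µg/kg column holds 8; Insig2 is called from 1 µg/kg on.

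The direct comparison of 30 with 10 µg/kg, which used no vehicle mouse in its contrast, gave 24 members lower and 2 higher (Mylip and Abcg5), against 21.1% of all genes called, 10.6% in each direction. The median over the members was −1.54 on the log2 scale and that over all genes 0.02. A linear slope over the ordered dose steps, for which the adjusted p (under 0.05) alone set the call, was found for 17 members downward and 1 (Mylip) upward, against 57.7% of all genes (26.1% downward and 31.5% upward). Among the 18 synthesis genes, 7 had such a slope, while 17 were called lower at 30 µg/kg, where 18.9% of all genes were.

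One mouse at 30 µg/kg stood apart in the synthesis genes, and every mean at that dose includes it. Replicate 1 had the highest level of its group in 18 of 18 synthesis genes, with a median level of 83.3% of the vehicle mean. The other 4 mice had medians of 12.9, 12.2, 18.1 and 21.2% and lay below every vehicle mouse in 18 of 18. Replicate 1 was below every vehicle mouse in 8 of the 18, within the vehicle range in 9 and above it in 1. It also stood apart over all genes tested. On their first principal component (47.6% of the variance) it lay at 81.7 and the other 4 mice at 129 to 147. The 10 µg/kg mice lay at 39.1 to 67.8. Without replicate 1, 27 members were lower and 1 higher at 30 µg/kg, where 44.4% of all genes were called. All 18 synthesis genes were then called, and the synthesis median moved from −1.84 to −2.64.

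**Figure D2:**
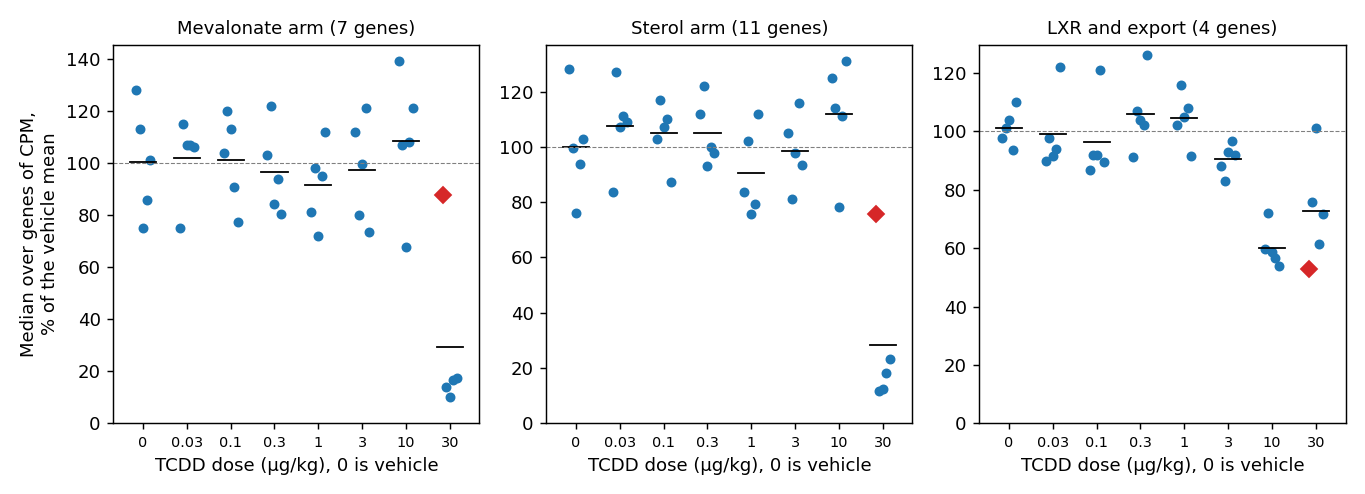
Median over the genes of an arm of each mouse's CPM as a percent of the vehicle mean (y), by TCDD dose (x), with 1 point per mouse, a line at the mean of 5 and a red diamond for replicate 1 at 30 µg/kg. Mice of both synthesis arms scatter about 100% through 10 µg/kg and lie between 10.2 and 23.4% in 4 of 5 at 30 µg/kg, with the fifth at 87.7 and 75.8%; the LXR and export genes are already between 53.9 and 71.9% at 10 µg/kg.

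Cell type markers moved as well, some of them below 30 µg/kg. The summed level of 5 hepatocyte markers (Alb, Ttr, Trf, Apoa2, Serpina1c; none at 0 in any group) ran from 106830 to 131530 CPM in vehicle, from 74164 to 121920 at 10 µg/kg and from 35639 to 77093 at 30 µg/kg. Most of this sum was Alb (means of 83015 CPM in vehicle and 34527 at 30 µg/kg). The other means fell unevenly, from 17645 to 14157 CPM for Trf and from 8537 to 2933 for Ttr. Apoa2 fell from 7364 to 1389 CPM and Serpina1c from 455 to 58.6. Replicate 1 had the highest sum at 30 µg/kg. The sum of 8 macrophage markers (none at 0 in a whole group) ran from 160 to 223 CPM in vehicle, 379 to 623 at 10 µg/kg and 547 to 1383 at 30 µg/kg, with replicate 1 lowest, and lay wholly above vehicle from 1 µg/kg on. The sum of 5 stellate cell markers ran from 61.6 to 142 CPM in vehicle, 199 to 267 at 10 µg/kg and 320 to 743 at 30 µg/kg. At 30 µg/kg most of it was collagen, with means of 254 CPM for Col1a1 (10.9 in vehicle) and 269 for Col3a1 (37.1). Lrat had 33.2 CPM (12.2 in vehicle), Pdgfrb 27.1 (10.9) and Des 13.3 (10.2). The sum of 5 endothelial markers ran from 106 to 148 CPM in vehicle, 200.1 to 230.0 at 10 µg/kg and 193 to 284 at 30 µg/kg. The stellate and endothelial sums were both wholly above vehicle at 10 µg/kg, where 8 members were called. The sum of 5 cholangiocyte markers ran from 37.2 to 48.4 CPM in vehicle, 35.4 to 75.4 at 10 µg/kg and 67.5 to 333 at 30 µg/kg. Most of it was Spp1 (means of 25.8 CPM in vehicle and 137 at 30 µg/kg), and Sox9 was called lower (10.6 and 5.51 CPM, log2 −0.95, adjusted p = 0.00392). No stellate, endothelial or cholangiocyte marker was at 0 in a library. Fewer hepatocytes and less RNA per hepatocyte cannot be told apart in bulk liver, and the part of these shifts in the results was not tested.

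The numbers in the library titles fall in 2 runs, with 3 vehicle and 2 of the 30 µg/kg mice in the first and 2 vehicle and 3 of the 30 µg/kg mice in the second. At 30 µg/kg, 26 members were lower in the second run alone, with 18 of 18 synthesis genes, where 37.2% of all genes were called in either direction. In the first run alone, which holds replicate 1, 15 members and 6 of 18 synthesis genes were lower (30.3% of all genes called). With the run as a covariate the count was 25 (41.9%). At 10 µg/kg, 2 members were lower in the first run alone (12.1% of all genes called) and 6 in the second (15.2%). Scaled to total gene counts in place of TMM, the median of all genes at 30 µg/kg moved up to 0.52 on the log2 scale, the members' median was −0.93, and 22 members were lower and 2 (Mylip and Abcg5) higher. That scaling moved the median of all genes at 10 µg/kg to 0.22 and gave 3 members lower (Insig2, Abcg5 and Abcg8) and 3 higher in place of 7 and 1. It called 51.8% of all genes at 30 µg/kg and 24.3% at 10 µg/kg.

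Regulators of the sensor were all repressed at 30 µg/kg, where 18.9% of all genes were called lower. Insig1, which retains the SCAP complex and is itself an SREBP target, had 640.3, 496, 326, 485 and 413 CPM in the vehicle mice. It had 230.2, 18.1, 21.6, 42.6 and 47.4 CPM at 30 µg/kg. Every treated mouse was below every vehicle mouse, replicate 1 far less so than the rest. TCDD repressed Insig1 6.56-fold (log2 −2.71, SE 0.39, adjusted p = 1.7e-07), and the log2 change was −3.86 without replicate 1.

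Scap, the escort of SREBP2, had 130.4, 147, 155, 158 and 174 CPM in vehicle and 68.0, 57.1, 51.4, 54.5 and 58.0 at 30 µg/kg. It was one of the members in which the 5 treated mice lay close together, replicate 1 included. Scap fell 2.65-fold at 30 µg/kg (log2 −1.40, SE 0.13, adjusted p = 6.15e-12). Its levels at 10 µg/kg were 93.2, 109, 75.6, 102 and 129.6 CPM, all under the vehicle range, and its fold lay just past the threshold (log2 −0.59, SE 0.12, adjusted p = 0.000314). The call ended by the fold threshold, at log2 −0.50 to −0.58, without vehicle replicate 3, 4 or 5 or without 10 µg/kg replicate 1 or 3.

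Insig2, which holds SCAP as INSIG1 does, was called at the lowest dose of any member and was the most even gene of the set in vehicle mice. Its vehicle levels were 346, 328, 336, 331 and 331 CPM. They were 199.8, 213, 249, 198 and 194 CPM at 1 µg/kg and 144, 167, 143, 136 and 141 CPM at 10 µg/kg. No mouse at 0.03, 0.1, 1, 3, 10 or 30 µg/kg reached this narrow vehicle range, and a single mouse at 0.3 µg/kg, with 329.9 CPM, did. Ebp at 1 µg/kg and Stard4 at 3 µg/kg also lay wholly below vehicle. The share of all genes not overlapping vehicle is given here for 10 and 30 µg/kg alone. The separations at lower doses therefore cannot be set against it. Among the regulators the lowest log2 fold change was −0.17 at 0.03 µg/kg and −0.45 at 0.1 µg/kg, and Insig2 was called at neither dose. Its log2 fold change was −0.66 at 1 µg/kg (SE 0.19, adjusted p = 0.0404), −0.95 at 3 µg/kg (adjusted p = 0.000895) and −1.19 at 10 µg/kg (adjusted p = 7.18e-06).

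The Insig2 levels split at 30 µg/kg, with 93.6, 271, 242, 111 and 92.7 CPM. Replicates 2 and 3 were well above every mouse at 10 µg/kg, and the other 3 were below them all. The log2 fold change from vehicle was −1.04 (SE 0.19, adjusted p = 1.7e-05), its size by total counts (−0.52) was under the fold threshold, and the difference between 30 and 10 µg/kg was 0.15 (95% interval −0.23 to 0.52). The call at 1 µg/kg held without 1 µg/kg replicate 3 and ended without any other single mouse of that dose or vehicle (log2 −0.64 to −0.67). Srebf2 itself was near vehicle through 10 µg/kg (88.0 ± 11.2 and 96.8 ± 14.5 CPM, SD, n = 5) and fell 2.14-fold at 30 µg/kg, to 41.2 ± 20.1 CPM (adjusted p = 9.45e-07).

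**Figure D3:**
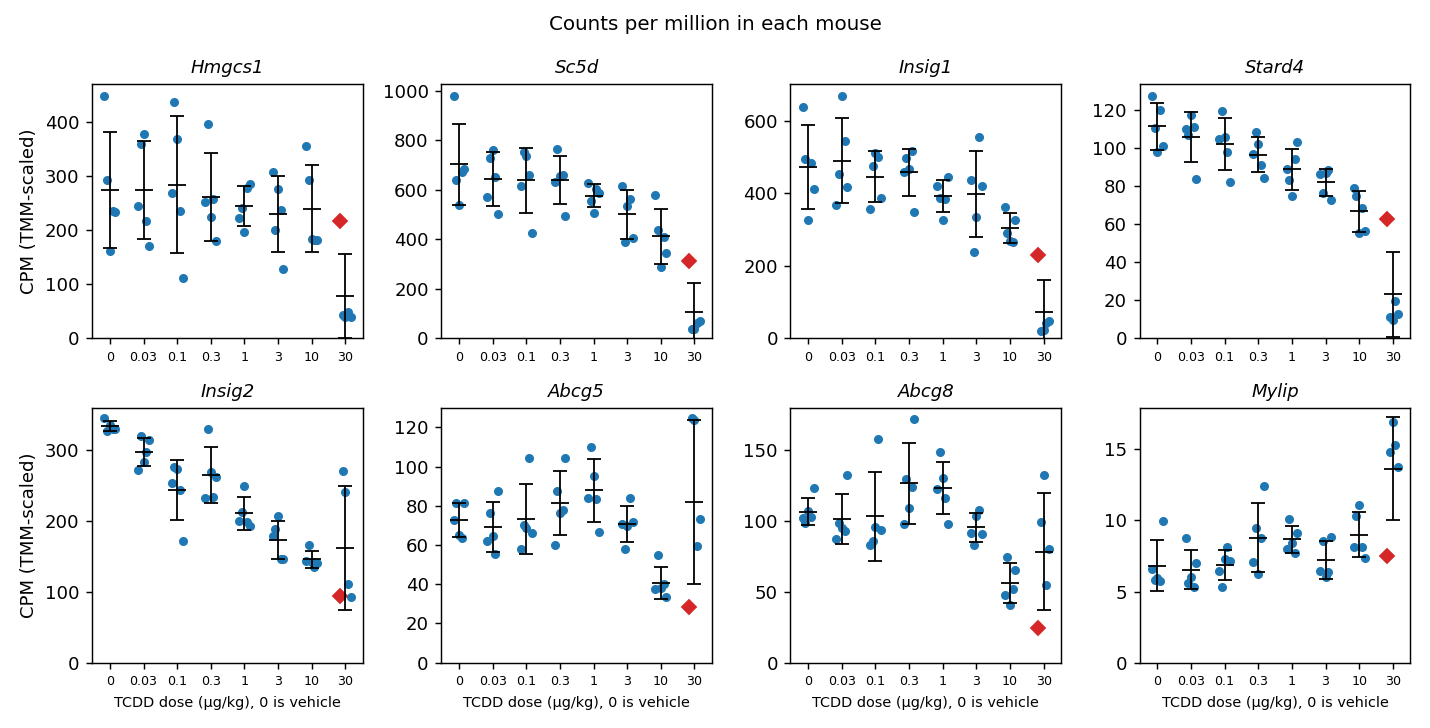
CPM in each mouse (y, starting at 0) by TCDD dose (x) for 8 members, with 1 point per mouse, mean and SD bars for 5 mice and a red diamond for replicate 1 at 30 µg/kg. Hmgcs1 falls at the last dose alone, and the mean of Insig2 falls at each step from 0.3 to 10 µg/kg. The means of Abcg5 and Abcg8 are lowest at 10 µg/kg, and Mylip is highest at 30 µg/kg in 4 of 5 mice.

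All 7 genes of the mevalonate arm were lower at 30 µg/kg, against 18.9% of all genes, with a median log2 fold change of −1.83. At 10 µg/kg 1 was lower and 1 higher, against 8.13% of all genes lower and 13.6% higher. Fdps, farnesyl diphosphate synthase at the end of the arm, had 11.9, 12.6, 4.98, 7.63 and 9.53 CPM in vehicle. It had 2.55, 0.458, 0.191, 0.318 and 0.759 CPM at 30 µg/kg, which came from 5 to 55 reads a library. Another gene on the same strand shared 26.7% of its exon length, so these low levels are uncertain. The groups did not overlap, and the fitted fold was the largest of the set (11.2-fold lower, log2 −3.48, SE 0.43, adjusted p = 7.96e-09), being −4.43 on the log2 scale without replicate 1. Fdps was also called lower at 10 µg/kg (log2 −0.97, SE 0.37, adjusted p = 0.0426). That call ended without vehicle replicate 1, 2 or 5 or without 10 µg/kg replicate 2, 3 or 4 (log2 −0.77 to −0.96). It also ended by total counts (−0.80) and in the first (−0.98) or second (−0.90) title run alone.

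Pmvk, phosphomevalonate kinase, had 79.5, 72.4, 48.3, 55.0 and 65.8 CPM in vehicle and 49.9, 6.49, 5.07, 5.95 and 12.7 at 30 µg/kg. Replicate 1 lay within the vehicle range and the other 4 mice lay far under it. Pmvk fell 4.03-fold (log2 −2.01, SE 0.36, adjusted p = 1.05e-05), with a log2 change of −3.09 without replicate 1. Hmgcs1, the synthase that forms HMG-CoA and whose promoter holds the sterol regulatory element letters, ranged from 160.8 to 449 CPM in vehicle. It had 216, 42.7, 39.0, 49.0 and 38.3 CPM at 30 µg/kg, values named after they were seen, and fell 3.56-fold (log2 −1.83, SE 0.38, adjusted p = 9.32e-05; log2 −2.70 without replicate 1).

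Mvk, mevalonate kinase, was the one member called in opposite directions at different doses. It had 31, 34.1, 22.3, 22.9 and 27.9 CPM in vehicle and 53.8, 47.0, 32.8, 43.0 and 57.6 at 10 µg/kg, so 4 of the 5 mice exceeded the vehicle range. Levels at 30 µg/kg were 44.0, 7.45, 6.33, 9.84 and 14.0 CPM, with replicate 1 above the vehicle range and the others below it. The log2 fold change was 0.76 at 10 µg/kg (SE 0.28, adjusted p = 0.0363) and −0.77 at 30 µg/kg (SE 0.29, adjusted p = 0.0216). The call at 10 µg/kg ended without vehicle replicate 3, 4 or 5 or without 10 µg/kg replicate 1, 2 or 5 (log2 0.67 to 0.76). It also ended in the first title run alone (0.77). The call at 30 µg/kg ended without vehicle replicate 2 or without 30 µg/kg replicate 2, 3 or 4 (log2 −0.58 to −0.68) and by total counts (−0.33). It also ended in the first title run alone (−0.20) and with the 2 groups fitted alone (−0.78, edgeR adjusted p = 0.166). Without 30 µg/kg replicate 1 the change was −1.56. The remaining genes of the arm fell 3.58-fold (Mvd, the decarboxylase), 3.51-fold (Idi1, the isomerase) and 2.23-fold (Acat2, acetoacetyl-CoA thiolase) at 30 µg/kg, with log2 changes of −2.92, −3.16 and −1.64 without replicate 1.

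In the sterol arm, 10 of 11 genes were lower at 30 µg/kg, against 18.9% of all genes, with a median log2 fold change of −1.88. None was called at 10 µg/kg, against 21.8% of all genes called in either direction. Sc5d, the sterol C5 desaturase near the end of the arm, was the most abundant sterol gene per kilobase, with 979, 638, 539, 671 and 684 CPM in vehicle. It had 313, 36.1, 37.4, 62.5 and 70.0 CPM at 30 µg/kg. Every treated mouse was below the vehicle range, replicate 1 by the least. TCDD repressed Sc5d 6.77-fold (log2 −2.76, SE 0.35, adjusted p = 1.85e-08), and the log2 change was −3.77 without replicate 1. Its mean was 501 ± 99.3 CPM at 3 µg/kg and 411 ± 111 at 10 µg/kg (SD, n = 5), neither of which passed the test (edgeR adjusted p = 0.406 and 0.0712).

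Tm7sf2, a sterol C14 reductase, was near its vehicle level up to 10 µg/kg. It had 170, 212, 205, 187 and 222 CPM in vehicle and 206 ± 47.3 CPM at 10 µg/kg (SD, n = 5). Its levels at 30 µg/kg were 122, 8.94, 11.7, 18.3 and 35.8 CPM, all under the vehicle range. The repression was 5.08-fold (log2 −2.35, SE 0.37, adjusted p = 1.24e-06), with a log2 change of −3.42 when replicate 1 was left out.

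The other called genes of the arm fell between 2.48-fold (Lss, lanosterol synthase) and 3.99-fold (Nsdhl, of C4 demethylation) at 30 µg/kg. Among them were Cyp51 (lanosterol demethylase, 3.91-fold), Dhcr7 (the last reductase to cholesterol, 3.89-fold), Ebp (sterol isomerase, 3.67-fold), Msmo1 (C4 methyl oxidase, 2.78-fold), Sqle (squalene epoxidase, 2.74-fold) and Fdft1 (squalene synthase, 2.59-fold). Without replicate 1 the log2 changes of these 8 genes ran from −2.02 (Lss) to −3.00 (Nsdhl). Ebp and Sc5d were the sterol genes whose mean was lowest relative to vehicle at 10 µg/kg, with log2 fold changes of −0.36 and −0.77 that did not pass the test. Hsd17b7, the keto reductase of C4 demethylation, had 59.1 ± 13.7 CPM in vehicle and 40.8 ± 13.2 at 30 µg/kg (SD, n = 5). Its adjusted p was 0.00457 but its fold of 1.45 missed the threshold, which it passed without vehicle replicate 3 or 5 or without 30 µg/kg replicate 1 (log2 −0.59 to −0.76).

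Between 10 and 30 µg/kg, 18 of 18 synthesis genes were called lower, against 10.6% of all genes, with a median log2 difference of −1.94. In the first title run alone 0 of the 18 were called lower (3.2% of all genes called in either direction), with a median of −1.38. At 10 µg/kg their median against vehicle was 0.16, with 13 above and 5 below 0. One mouse at 10 µg/kg was lower than its group, since replicate 3 had the lowest value in 17 of 18 synthesis genes, with median levels of 67.8% of the vehicle mean in the mevalonate arm and 78.3% in the sterol arm. Its hepatocyte marker sum (74164 CPM) was the lowest and its macrophage marker sum (623 CPM) the highest of the 10 µg/kg mice.

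**Figure D4:**
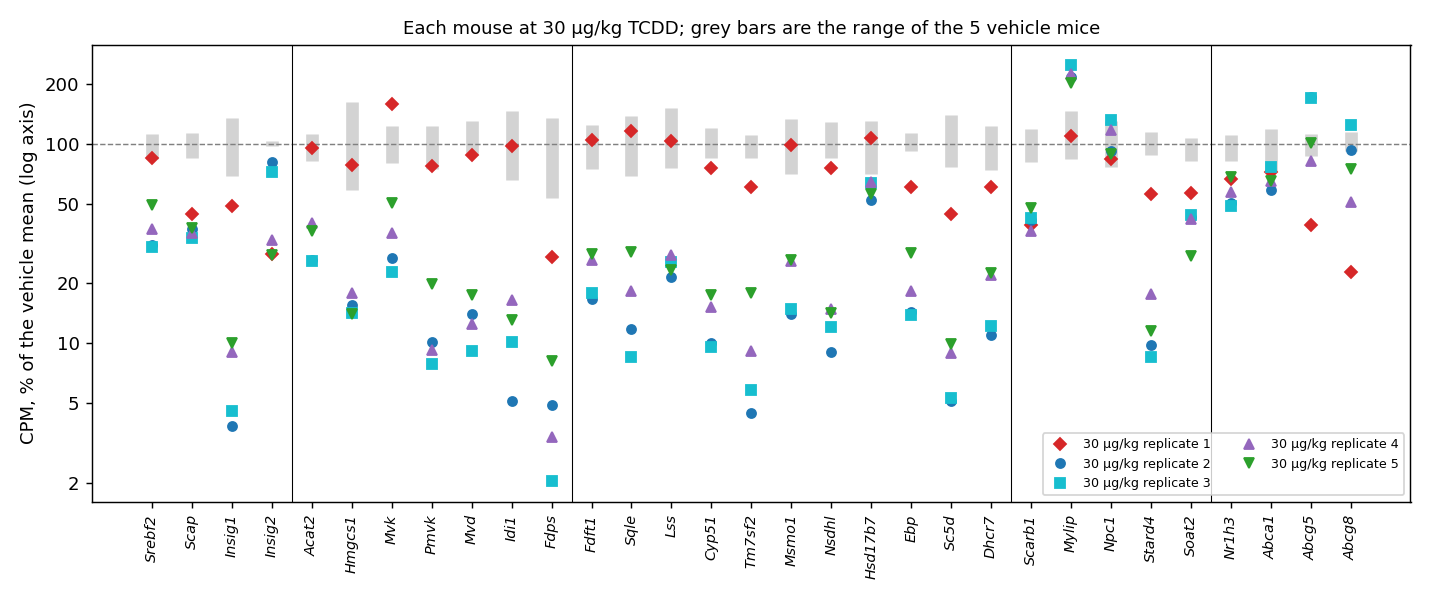
CPM of each 30 µg/kg mouse as a percent of the vehicle mean (y, log axis) for the 31 members (x, grouped by role and separated by lines), with grey bars for the range of the 5 vehicle mice. Replicate 1 (red diamonds) is above the other 4 mice in every synthesis gene, below them in Abcg5 and Abcg8, and among them in Scarb1.

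Uptake and storage genes split at 30 µg/kg, with 3 lower, 1 higher and 1 not called, against 18.9% of all genes lower and 23.2% higher. Stard4, a carrier that moves sterol between membranes, had 128, 111, 97.8, 119.8 and 101 CPM in vehicle. It had 62.4, 11.0, 9.53, 19.6 and 12.9 CPM at 30 µg/kg and 79.1, 74.7, 55.3, 68.7 and 56.3 at 10 µg/kg. Neither dose overlapped vehicle. Its change on the log2 scale was −0.74 at 10 µg/kg (SE 0.27, adjusted p = 0.0311), a call that ended without vehicle replicate 1 or 4 or 10 µg/kg replicate 3 or 5 (log2 −0.68 to −0.71), and −2.27 at 30 µg/kg (4.84-fold, SE 0.28, adjusted p = 7.75e-09). Without 30 µg/kg replicate 1 the latter was −3.07.

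Scarb1, the receptor for selective uptake from high density lipoprotein, had 164, 183, 188, 233 and 241 CPM in vehicle and 79.2, 84.5, 86.5, 73.8 and 97.1 at 30 µg/kg. The 5 treated mice were close together, with replicate 1 second lowest, in contrast with the synthesis genes. Scarb1 fell 2.40-fold (log2 −1.26, SE 0.17, adjusted p = 4.87e-08; log2 −1.24 without replicate 1). Soat2, which esterifies cholesterol in hepatocytes, fell 2.33-fold (adjusted p = 7.92e-10).

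Mylip was the single member called higher at 30 µg/kg. Its levels, named after they were seen, were 6.57, 5.79, 5.95, 5.74 and 9.96 CPM in vehicle and 7.499, 14.8, 16.9, 15.3 and 13.7 at 30 µg/kg. Replicate 1 lay within the vehicle range and the other 4 above it. Mylip rose 2.01-fold (log2 1.01, SE 0.19, adjusted p = 2.84e-05). Npc1, which exports cholesterol from lysosomes, had 78.2 ± 15.5 CPM in vehicle and 80.6 ± 16.0 at 30 µg/kg (SD, n = 5), a log2 difference of 0.04 with a 95% interval from −0.29 to 0.38.

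Of the 4 LXR and export genes, 3 (Abca1, Abcg5 and Abcg8) were called lower at 10 µg/kg, against 8.13% of all genes, and 1 (Nr1h3) at 30 µg/kg, against 18.9%. In the direct comparison of these doses 1 of the 4 was called (Abcg5, higher at 30 µg/kg). Abcg5 and Abcg8 encode the partners of the transporter that moves sterol into bile. Abcg5 had 72.5, 81.3, 64.9, 63.3 and 81.2 CPM in vehicle, 37.3, 54.8, 38.1, 40.2 and 33.6 at 10 µg/kg, and 28.5, 124.9, 123.9, 59.6 and 73.2 at 30 µg/kg. The 10 µg/kg mice were all below the vehicle range, whereas at 30 µg/kg replicates 1 and 4 were below it, replicates 2 and 3 above it and replicate 5 within it. Its log2 fold change was −0.83 at 10 µg/kg (SE 0.23, adjusted p = 0.00443) and 0.18 at 30 µg/kg (95% interval −0.27 to 0.62), which turned to −0.05 and −0.04 without 30 µg/kg replicates 2 and 3.

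The mean of Abcg8 was also lowest at 10 µg/kg, and at 30 µg/kg its mice again lay on both sides of the vehicle range. It had 102, 98.5, 107, 103 and 123 CPM in vehicle and 47.8, 74.8, 40.5, 51.9 and 65.7 at 10 µg/kg. It had 24.4, 99.2, 132.6, 54.7 and 80.1 CPM at 30 µg/kg. The log2 fold change was −0.93 at 10 µg/kg (SE 0.24, adjusted p = 0.0027) and −0.45 at 30 µg/kg (95% interval −0.92 to 0.02), and Abcg8 was called lower at 30 µg/kg without replicate 3 of that dose (log2 −0.74). Between 10 and 30 µg/kg Abcg5 rose 2.01-fold (adjusted p = 0.000703), whereas the log2 difference of Abcg8 was 0.48 (adjusted p = 0.128) and passed the test without 30 µg/kg replicate 1 (0.70). Whether Abcg5 and Abcg8 differed from each other was not tested.

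Abca1, which loads cholesterol onto apolipoprotein A-I, had 190.3, 129, 174, 188 and 118 CPM in vehicle. It had 109, 103, 113, 92.4 and 52.6 CPM at 10 µg/kg, all below the vehicle range, and 115, 93.7, 123, 105 and 104 at 30 µg/kg. The log2 fold change was −0.76 at 10 µg/kg (SE 0.21, adjusted p = 0.00405) and −0.56 at 30 µg/kg (SE 0.21, adjusted p = 0.0202), where its 1.48-fold missed the threshold; the threshold was passed without vehicle replicate 2 or 5 or without 30 µg/kg replicate 1 or 3 (log2 −0.59 to −0.66). Nr1h3, which encodes LXRα, had 96.5, 127, 129, 105 and 125 CPM in vehicle and 77.9, 59.0, 57.0, 66.7 and 79.9 at 30 µg/kg, with no overlap. It fell 1.71-fold (log2 −0.78, SE 0.11, adjusted p = 2.84e-07), and by total counts its change of −0.29 was under the fold threshold. In the first title run alone Abcg5 (−0.68) and Abcg8 (−0.75) did not pass at 10 µg/kg, and Abca1 did not pass in the second (−0.83) or by total counts (−0.53).

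Members whose mice did not overlap with vehicle were also counted. At 10 µg/kg, 6 members lay wholly below vehicle (Scap, Insig2, Stard4, Abca1, Abcg5 and Abcg8), none of them a synthesis gene, against 10.1% of all genes. At 30 µg/kg, 15 did, 8 of them synthesis genes, against 17.9% of all genes. No member lay wholly above vehicle at either dose, against 12.9% of all genes at 10 µg/kg and 19.7% at 30 µg/kg.

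A further list of 25 genes of sterol handling outside the set was read for comparison, of which 24 were tested. Of these, 6 were higher and 5 lower at 30 µg/kg, with a median log2 fold change of −0.12, against 23.2% of all genes higher and 18.9% lower. Abcg1, an exporter abundant in macrophages and an LXR target, was called from 1 µg/kg on, with log2 fold changes of 1.30, 1.58, 2.02 and 3.04 at 1, 3, 10 and 30 µg/kg. Soat1, the esterifying enzyme of macrophages, was called from 3 µg/kg on (0.83, 1.53 and 3.00 on the log2 scale). The macrophage marker sum was also above the vehicle range in these groups, at 308 to 317 CPM at 1 µg/kg and 242 to 436 at 3 µg/kg, and its part in these rises was not tested.

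Gramd1b and Gramd1c, carriers of sterol from the plasma membrane, were called higher from 10 µg/kg on, with log2 fold changes of 0.99 and 0.97 at 10 µg/kg and 1.62 and 0.84 at 30 µg/kg. Vldlr (a lipoprotein receptor) and Mbtps2 (the site-2 protease that releases active SREBP) were higher at 30 µg/kg alone. Genes lower at that dose included Lipc (hepatic lipase), Cyp27a1 (of bile acid synthesis), Lrp1 (a receptor of lipoprotein remnants) and Lipa (the lysosomal lipase).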

How the data were processed

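Total RNA from 40 livers was sequenced as paired-end libraries. The authors deposited, per library, the raw gene counts written by STAR (2.7.3a per the submitters' processing notes, which also name FastQC 0.11.7 and Trimmomatic 0.39), with an unstranded column and a column for each strand. The notes name the builds GRCm39 and mm10 without a role, and the annotation was not given in the sources used here. The authors also deposited a table of normalized values on a log2 scale, used in an alternative alone.

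The unstranded counts were used, since 50.0 to 50.3% of stranded counts fell on 1 strand. Reads in genes made up 71.3 to 80.8% of each library's reads, and the rows for unmapped, multimapped, intergenic and ambiguous reads were left out. Gene totals ran from 15.5 M to 21.0 M (median 17.5 M), and 80 replicate pairs differed beyond counting noise (lowest chi-square per degree of freedom 11.1). Replicate numbers follow accession order and pair no mice. Symbols were matched for 52083 identifiers and not for 3276.

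Genes were kept by filterByExpr (minimum count 10), scaled by TMM and fitted in edgeR 4.0.16 with 1 mean per dose over all 40 libraries (R 4.3.3). Each dose was compared with vehicle, 30 with 10 µg/kg, and a slope was fitted over dose steps 0 to 7. The standard error of a log2 fold change is its size divided by the square root of its F statistic, and intervals use 1.96 of these. The study's empirical Bayes posterior probability was replaced by this test, which was tested on simulated data. Alternatives were DESeq2 1.42.0, other scalings and filters, title runs, groups fitted alone and limma 3.58.1. Exon lengths and overlaps come from a GENCODE annotation of GRCm38 that may not be that of the counts. Members and lists were chosen with earlier results of these data known. Every mouse is given for the 2 members of each role with the largest log2 fold change at 30 µg/kg and for any other called at 10 µg/kg or below. The values of 1 gene of the further list are not reported here.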

Additional observations from a re-analysis of the deposited data

Results flagged for a closer look

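In each group of vehicle, 10 and 30 µg/kg, the highest or lowest of the 5 mice was compared with its nearest neighbour for each member, by the gap as a share of the group's range (Dixon's 95% critical value). Of 93 such groups 23 had a mouse standing apart. Chance gives about 1 in 20 for a single group. The 93 groups are 31 genes read in the same mice and are not independent, so their count cannot be set against that rate. In 19 of the 23 the mouse was replicate 1 at 30 µg/kg, and it was the highest. Among regulators and carriers its levels were 230.2 CPM for Insig1 and 62.4 CPM for Stard4. In the mevalonate arm they were 87.3 CPM for Acat2, 216 for Hmgcs1, 44.0 for Mvk, 49.9 for Pmvk, 34.6 for Mvd, 60.4 for Idi1 and 2.55 for Fdps. In the sterol arm they were 148 CPM for Fdft1, 77.8 for Sqle, 75.5 for Lss, 142 for Cyp51 and 122 for Tm7sf2. The remaining sterol genes had 152 CPM for Msmo1, 63.1 for Nsdhl, 63.7 for Hsd17b7, 313 for Sc5d and 81.5 for Dhcr7.

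The same mouse had the highest hepatocyte marker sum (77093 CPM) and the lowest macrophage marker sum (547 CPM) of its group, and the part of either in its levels was not tested.

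The other 4 mice that stood apart were vehicle replicate 1 for Lss (110.8 CPM, highest), vehicle replicate 5 for Mylip (9.96 CPM, highest), vehicle replicate 3 for Soat2 (44.1 CPM, lowest) and 10 µg/kg replicate 2 for Insig2 (167 CPM, highest).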

How the results depend on the processing

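Libraries are unstranded, depth was 15.5 M to 21.0 M counts, and 5 mice a group with 1 mouse apart at 30 µg/kg set the precision. Runs alone and left-out mice hold fewer samples by construction; the cause of the other differences was not tested. No paired analysis was possible because replicate numbers follow accession order.

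Percentages in this paragraph are the shares of all genes called in either direction at the same setting. At 30 µg/kg the count of members lower (25, 42.1%) was 15 in title run 1 alone (30.3%) and 24 to 27 with 1 mouse left out (39.9 to 44.4%). That of members higher (1) was 2 with total counts (51.8%). Against 10 µg/kg, the count lower (24, 21.1%) was 2 in title run 1 alone (3.2%). The count higher (2) was 3 with total counts (21 lower, 26.9%) and 0 in title run 1 alone. It was 1 with title run and position as covariates (22.2%), with the 2 groups alone (19%) and with limma on the deposited log2 values (13%). With 1 mouse left out it was 1 to 3 (17.3 to 26.3%). At 10 µg/kg the count lower (7, 21.8%) was 3 with total counts (24.3%) and 2 in title run 1 alone (12.1%). With 1 mouse left out it was 4 to 7 (19.7 to 21.4%), being 4 without 10 µg/kg replicate 3 (19.7%). The count higher (1) was 3 with total counts, 0 in title run 1 alone, 2 with the 2 groups alone (23%) and 0 to 1 with 1 mouse left out. At 3 µg/kg the count lower (1) was 0 in title run 1 alone, 2 with no fold threshold and 1 to 2 with 1 mouse left out. At 1 µg/kg the count lower (1) was 0 with total counts and in either title run alone, 2 with the 2 groups alone and 0 to 1 with 1 mouse left out. The slope count lower (17) was 10 with total counts, 8 in title run 1 alone, 28 with dose on a linear scale and 15 to 20 with 1 mouse left out, and that higher (1) was 2 with total counts. Shares of all genes at other settings are not given for 1 and 3 µg/kg and the slope, so those counts cannot be set against them.

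Of single members, Npc1 at 30 µg/kg (log2 0.04) was −0.0332 and −0.0625 in title runs 1 and 2 alone and ran from −0.0793 to 0.156 with 1 mouse left out, below 0 without vehicle replicate 3 or 30 µg/kg replicate 3 or 4. Abcg5 at 30 µg/kg (0.18) ran from −0.0486 to 0.391 with 1 mouse left out, below 0 without 30 µg/kg replicate 2 or 3, and Abcg8 (−0.45) was 0.0796 with total counts. Of the members' values at other settings, 448 kept direction and call, 35 lost and 6 gained a call; with 1 mouse left out, 363 kept both, 34 lost and 8 gained a call.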

Other observations

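Ch25h, the hydroxylase that makes an oxysterol in activated macrophages, was left untested by the count filter. It had 0 to 4 reads a library in vehicle, 1 to 5 at 10 µg/kg and 4 to 58 at 30 µg/kg.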
